A study of Homo sapiens with 20 samples.

Results

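The 9 genes described here are targets of NRF2, the transcription factor of the oxidative stress response. They were taken by symbol from both deposited tables, and each matched 1 row of the 26485 rows in a table. SLC7A11, GCLC and GCLM supply glutathione, TXNRD1 and SRXN1 belong to the thioredoxin and peroxiredoxin systems, NQO1, HMOX1 and ME1 act on quinones, heme and NADPH, and OSGIN1 is an oxidative stress-induced growth regulator. No group received an agent named as an NRF2 activator, so membership of the pathway rests on textbook knowledge and was not tested here. The libraries held RNA from nuclei of HCT116 cells, an established colorectal carcinoma line labelled wild type, depleted of ribosomal RNA and prepared with a directional kit. Every cell was electroporated and then kept for 3 hours in medium with 0.1% DMSO. The 4 conditions were DMSO with water, 10 µM Nutlin-3a with water, DMSO with 10 µM of a stapled peptide, and Nutlin-3a with that peptide, and peptide wells also had 200 nM peptide in the medium. Nutlin-3a releases p53 from its inhibitor MDM2, and the peptide is described as blocking the binding of p53 to Mediator, a coactivator of RNA polymerase II. Each condition had 2 replicates in experiment 1 and 3 in experiment 2, 20 libraries in all. The labels do not say whether replicates came from separate cultures, so p-values measure the spread between these libraries, which may be partly technical.

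In unstressed cells KEAP1 holds NRF2, encoded by NFE2L2, for ubiquitination by a ligase built on CUL3 and RBX1. Oxidants and electrophiles modify KEAP1, NRF2 accumulates, and it binds antioxidant response elements together with small MAF proteins, whereas BACH1 occupies many of the same elements as a repressor, best known at HMOX1. p53 is known to meet this pathway at several points, since SLC7A11 has been described as repressed by p53 and OSGIN1 as induced by it.

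The promoter sequences below are shown because the members are grouped by a shared regulator, and the capitals mark the letters of its element or, in OSGIN1, of the AP-1 element. In GCLM and TXNRD1 the capitals are the reverse complement of the element. RefSeq (GRCh38.p14) gave a promoter for 7 of the 9 members, with 250 bases before and 50 after the start site, and SLC7A11 and HMOX1 were not matched. The core of the antioxidant response element, TGACNNNGC on either strand, occurred in 3 of the 7 members, GCLM, TXNRD1 and ME1, and in 13.3% of all 35116 promoters of that length. The AP-1 element TGACTCA, which can overlap the core, occurred in ME1 and OSGIN1, 2 of the 7 members, and in 4.95% of all promoters. The 9-letter form TGACTCAGC that joins both occurred in ME1 and in 0.561% of all promoters. A match is a description of the letters, not evidence of a bound site, and enhancers lie outside these windows. The 4 sequences that follow are the 250 bases before the start site, read 5′ to 3′ on the gene's strand. The first, GCLM, lies on the minus strand at chr1:93909431-93909680 and carries TGACTAAGC on the opposite strand, centred 30 bases before the start. The TXNRD1 stretch lies on the plus strand at chr12:104286782-104287031, inside the deposited row, and carries TGACAAAGC on the opposite strand, centred 98 bases before the start. The ME1 stretch lies on the minus strand at chr6:83431052-83431301, with TGACTCAGC centred 133 bases before the start, and the OSGIN1 stretch on the plus strand at chr16:83952990-83953239, with the AP-1 element centred 94 bases before. TXNRD1 has a second promoter with further matches, and ME1 a further match after its start, neither of them shown.
GCLM: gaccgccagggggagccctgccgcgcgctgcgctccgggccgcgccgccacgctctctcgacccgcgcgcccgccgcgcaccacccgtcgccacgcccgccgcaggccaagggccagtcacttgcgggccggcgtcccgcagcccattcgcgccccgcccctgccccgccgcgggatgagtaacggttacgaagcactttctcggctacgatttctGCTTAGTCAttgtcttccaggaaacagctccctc
TXNRD1: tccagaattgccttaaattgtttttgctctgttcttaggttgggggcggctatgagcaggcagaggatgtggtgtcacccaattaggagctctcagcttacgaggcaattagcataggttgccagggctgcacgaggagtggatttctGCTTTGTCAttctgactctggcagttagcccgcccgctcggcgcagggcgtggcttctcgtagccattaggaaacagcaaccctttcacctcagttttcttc
ME1: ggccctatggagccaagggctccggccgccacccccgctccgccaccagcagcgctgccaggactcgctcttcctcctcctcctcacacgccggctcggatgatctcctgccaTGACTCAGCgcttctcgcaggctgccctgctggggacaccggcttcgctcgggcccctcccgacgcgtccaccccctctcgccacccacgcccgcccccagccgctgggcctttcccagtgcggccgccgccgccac
OSGIN1: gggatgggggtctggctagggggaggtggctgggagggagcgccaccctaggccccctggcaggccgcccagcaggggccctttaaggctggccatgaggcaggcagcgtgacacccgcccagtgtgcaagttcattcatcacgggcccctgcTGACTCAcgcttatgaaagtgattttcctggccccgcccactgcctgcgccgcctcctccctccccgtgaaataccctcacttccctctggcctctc

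Values are reads per 1000000 reads of the gene rows (RPM), after a scaling factor per library, with no correction for gene length, so they are compared between libraries and never between genes. Rows span exons and introns of 1 RefSeq isoform on hg38, and each member had the same coordinates in both tables. SLC7A11 lies at chromosome 4, 138164094 to 138242069, GCLC at chromosome 6, 53497341 to 53544645, and GCLM at chromosome 1, 93885200 to 93909163. TXNRD1 lies at chromosome 12, 104286682 to 104348421, and SRXN1 at chromosome 20, 646624 to 653185. NQO1 lies at chromosome 16, 69709401 to 69726439, HMOX1 at chromosome 22, 35381067 to 35393598, ME1 at chromosome 6, 83210391 to 83430954, and OSGIN1 at chromosome 16, 83953222 to 83966007. Strand handling in the counting is not given in the sources used here, so reads of overlapping genes cannot be told apart. SLC7A11 shares 14084 bases with the opposite-strand SLC7A11-AS1, whose own row held at most 1.87 RPM, and NQO1 shares 710 bases with the antisense AC092115.2. TXNRD1 contains EID3 on the same strand (31.2 RPM on average in experiment 1 and 10.8 RPM in experiment 2), and SRXN1 is covered over 6560 bases by the gene model AL121758.1 of the same strand.

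Summed over gene rows, a library of experiment 1 had 36717795 to 63896604 reads and one of experiment 2 had 18787172 to 47407746, and the 9 members had from 202 to 43377 reads per library. Summed over 6 markers, colorectal epithelial genes had 1537 to 3891 RPM per library, 4 leukocyte markers had 0.0955 to 6.65 RPM, and fibroblast, endothelial and hepatocyte lists had at most 3.08 RPM, with no listed marker at 0 in every library. Within experiment 2 some single markers differed by replicate number. The epithelial CDH1 had 9.34 to 11.5 RPM in libraries numbered 3 and 45.8 to 86.6 in the others, whereas EPCAM had 301 to 365 throughout. The fibroblast marker PDGFRB had 2.57 to 3.01 RPM in libraries numbered 3 and at most 0.327 in the others. In experiment 1, replicate 2 of Nutlin-3a with water stood apart, with a correlation of 0.955 to its replicate against 0.992 to 0.997 in the other groups. Estimates that moved most when it was left out are given with and without it.

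The comparison of Nutlin-3a with DMSO, both with water, concerns the response to p53 release. None of the 9 members passed the test, beside 0% of the 15958 genes tested (limma, adjusted p under 0.05), and limma-voom called 0 as well. At an unadjusted p under 0.05 limma had 1 member, OSGIN1, beside 0.627% of all genes. OSGIN1 had the highest estimate and was higher with Nutlin-3a in 5 of 5 pairs, where a pair is 2 libraries of the same experiment and replicate number. The glutathione genes SLC7A11, GCLC and GCLM and the reductase TXNRD1 were each higher in 4 of 5 pairs and lower in the pair that holds the library that stood apart. The estimates over all libraries ranged from -0.17 for ME1 to 0.44 for OSGIN1 on the log2 scale, with a median of 0.07 over the members and -0.03 over all genes. Without the library that stood apart the median was 0.18 over the members and -0.01 over all genes, and limma's adjusted p was 1 for each member. CDKN1A, the cell cycle inhibitor best known as a p53 target, had 37.1 to 62.7 RPM in DMSO with water and 49.3 to 177 RPM with Nutlin-3a, and was higher in 5 of 5 pairs.

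SLC7A11 encodes the cystine importer that feeds glutathione synthesis. In experiment 1 it had 35.8 and 35.9 RPM in DMSO with water, 40.8 and 18.9 with Nutlin-3a and water, 34.5 and 31.8 in DMSO with peptide and 38.2 and 31.8 with Nutlin-3a and peptide, replicates 1 and 2 in turn. In experiment 2 it had 275, 73.3 and 38.8 RPM in DMSO with water, 331, 184 and 44.2 with Nutlin-3a, 294, 84.9 and 45.4 with peptide and 250.1, 168 and 41.3 with both, replicates 1, 2 and 3 in turn. The replicate number separated the libraries of experiment 2 far more than the treatment did, and the treatment groups overlapped there. In experiment 1 both libraries with DMSO and peptide lay just below both with DMSO and water, and the other groups overlapped. The change with Nutlin-3a was 0.21 ± 0.61 (SE, 5 libraries per group, 95% interval -1.08 to 1.50). In a fit with the replicate number as a block it was 0.21 ± 0.21 (95% interval -0.22 to 0.64). Within experiment 2 it was higher in 3 of 3 pairs, by 0.27, 1.32 and 0.18, and within experiment 1 by 0.18 in the first pair and at -0.91 in the other. The change was 0.45 ± 0.66 without the library that stood apart.

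GCLC and GCLM encode the catalytic and modifier subunits of glutamate-cysteine ligase, the first step of glutathione synthesis. GCLC had 109 and 111 RPM in DMSO with water and 119 and 73.4 with Nutlin-3a in experiment 1, and 168, 171 and 170.5 against 198, 212 and 189 in experiment 2. With peptide, GCLC had 113 and 102 RPM in DMSO and 126 and 119 with Nutlin-3a in experiment 1, and 190.2, 205 and 184 against 192, 252 and 194 in experiment 2. In experiment 2 the DMSO with water libraries were the lowest of the 12, almost equal to each other, and did not overlap any other group. The share of all genes with treatment groups of 2 or 3 libraries apart in this way was not counted, for this or any other member. GCLM had 65.4 and 67.3 RPM in DMSO with water and 76.1 and 44.6 with Nutlin-3a in experiment 1, and 74.8, 106 and 73.1 against 97.2, 131 and 90.2 in experiment 2. With peptide, GCLM had 69.2 and 61.3 RPM in DMSO and 76.6 and 73.8 with Nutlin-3a in experiment 1, and 82.9, 112 and 97.0 against 95.4, 156 and 93.4 in experiment 2. In experiment 1 both libraries with Nutlin-3a and peptide lay above those of both DMSO groups. In experiment 2 the groups overlapped, and replicate 2 was the highest library of each. The Nutlin-3a changes were 0.05 ± 0.13 for GCLC (95% interval -0.23 to 0.32) and 0.12 ± 0.18 for GCLM (-0.26 to 0.50), or 0.19 and 0.27 without the library that stood apart. Within experiment 2 GCLM was higher by 0.38, 0.31 and 0.30 in the 3 pairs, and GCLC by 0.23, 0.31 and 0.15.

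TXNRD1 encodes the cytosolic thioredoxin reductase. In experiment 1 it had 691 and 724 RPM in DMSO with water, 761 and 541 with Nutlin-3a, 740.0 and 703 with peptide and 827 and 807 with both. In experiment 2 it had 331, 535 and 182, 388, 607 and 209, 309, 568 and 218 and 334, 641 and 202 RPM in the same order. Replicate 2 was the highest and replicate 3 the lowest of every group in experiment 2, where the groups overlapped, and in experiment 1 both libraries with Nutlin-3a and peptide lay above the other 6. The Nutlin-3a change was 0.07 ± 0.34 (95% interval -0.65 to 0.78), or 0.18 without the library that stood apart. With the replicate number as a block and all libraries the interval was -0.14 to 0.28. SRXN1, the sulfiredoxin that reactivates oxidised peroxiredoxins, had 59.1 to 88.0 RPM in experiment 1 and 113 to 187 RPM in experiment 2. Its Nutlin-3a change was 0.07 ± 0.15 (95% interval -0.25 to 0.39), with 3 of 5 pairs higher, and -0.01 without the library that stood apart.

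NQO1 encodes the quinone reductase most often used as an NRF2 readout. It had 118 and 116 RPM in DMSO with water and 125 and 120.2 with Nutlin-3a in experiment 1, and 469, 375 and 324 against 424, 310.4 and 298 in experiment 2. With peptide, NQO1 had 117 and 120.2 RPM in DMSO and 150.4 and 141 with Nutlin-3a in experiment 1, and 468, 375 and 472 against 437, 368 and 357 in experiment 2. In experiment 1 both libraries with Nutlin-3a and peptide lay above the other 6, and in experiment 2 all groups overlapped. The Nutlin-3a change without peptide was -0.08 ± 0.14 (95% interval -0.38 to 0.21), and NQO1 was lower in 3 of 3 pairs of experiment 2, as were 20.2% of all genes.

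HMOX1 encodes heme oxygenase, which opens the heme ring and frees iron. In experiment 1 it had 11.1 and 16.3 RPM in DMSO with water, 13.1 and 35.1 with Nutlin-3a, 10.1 and 10.3 with peptide and 13.0 and 21.6 with both. In experiment 2 it had 10.3, 10.8 and 8.21, 8.92, 10.7 and 15.4, 8.62, 11.7 and 16.0 and 11.9, 16.9 and 14.3 RPM in the same order. The highest of the 20 libraries was the replicate that stood apart, and in experiment 2 only DMSO with water and Nutlin-3a with peptide did not overlap. The Nutlin-3a change was 0.39 ± 0.27 (95% interval -0.17 to 0.96), with 3 of 5 pairs higher, and 0.11 without the library that stood apart. ME1, malic enzyme, which forms NADPH in the cytosol, had 75.3 to 138 RPM in experiment 1 and 75.1 to 101 RPM in experiment 2. Its change was -0.17 ± 0.14 (95% interval -0.47 to 0.13), with 2 of 5 pairs higher and the largest pair difference, -0.82, in the pair with the library that stood apart, and -0.02 without that library.

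OSGIN1 encodes a growth and survival regulator induced by oxidative stress. In experiment 1 it had 12.7 and 14.3 RPM in DMSO with water, 15.6 and 30.6 with Nutlin-3a, 12.9 and 13.9 with peptide and 13.5 and 16.4 with both. In experiment 2 it had 26.4, 24.5 and 17.7, 29.5, 30.2 and 23.0, 21.8, 28.9 and 24.7 and 30.8, 40.4 and 24.6 RPM in the same order. Both Nutlin-3a with water libraries of experiment 1 lay above both with DMSO and water, and in experiment 2 these groups overlapped. The Nutlin-3a change was 0.44 ± 0.20, a fold of 1.35 (95% interval 0.02 to 0.85 on the log2 scale, limma adjusted p = 1 and unadjusted p = 0.04). All 5 pairs were higher, by 0.28, 1.07, 0.16, 0.30 and 0.37, as they were for 2.87% of all genes. Without the library that stood apart the change was 0.23, and in the fit with replicate numbers as blocks limma's adjusted p was 0.582 and the unadjusted p was 0.00693, with 7.64% of all genes under an unadjusted p of 0.05.

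**Figure D1:**
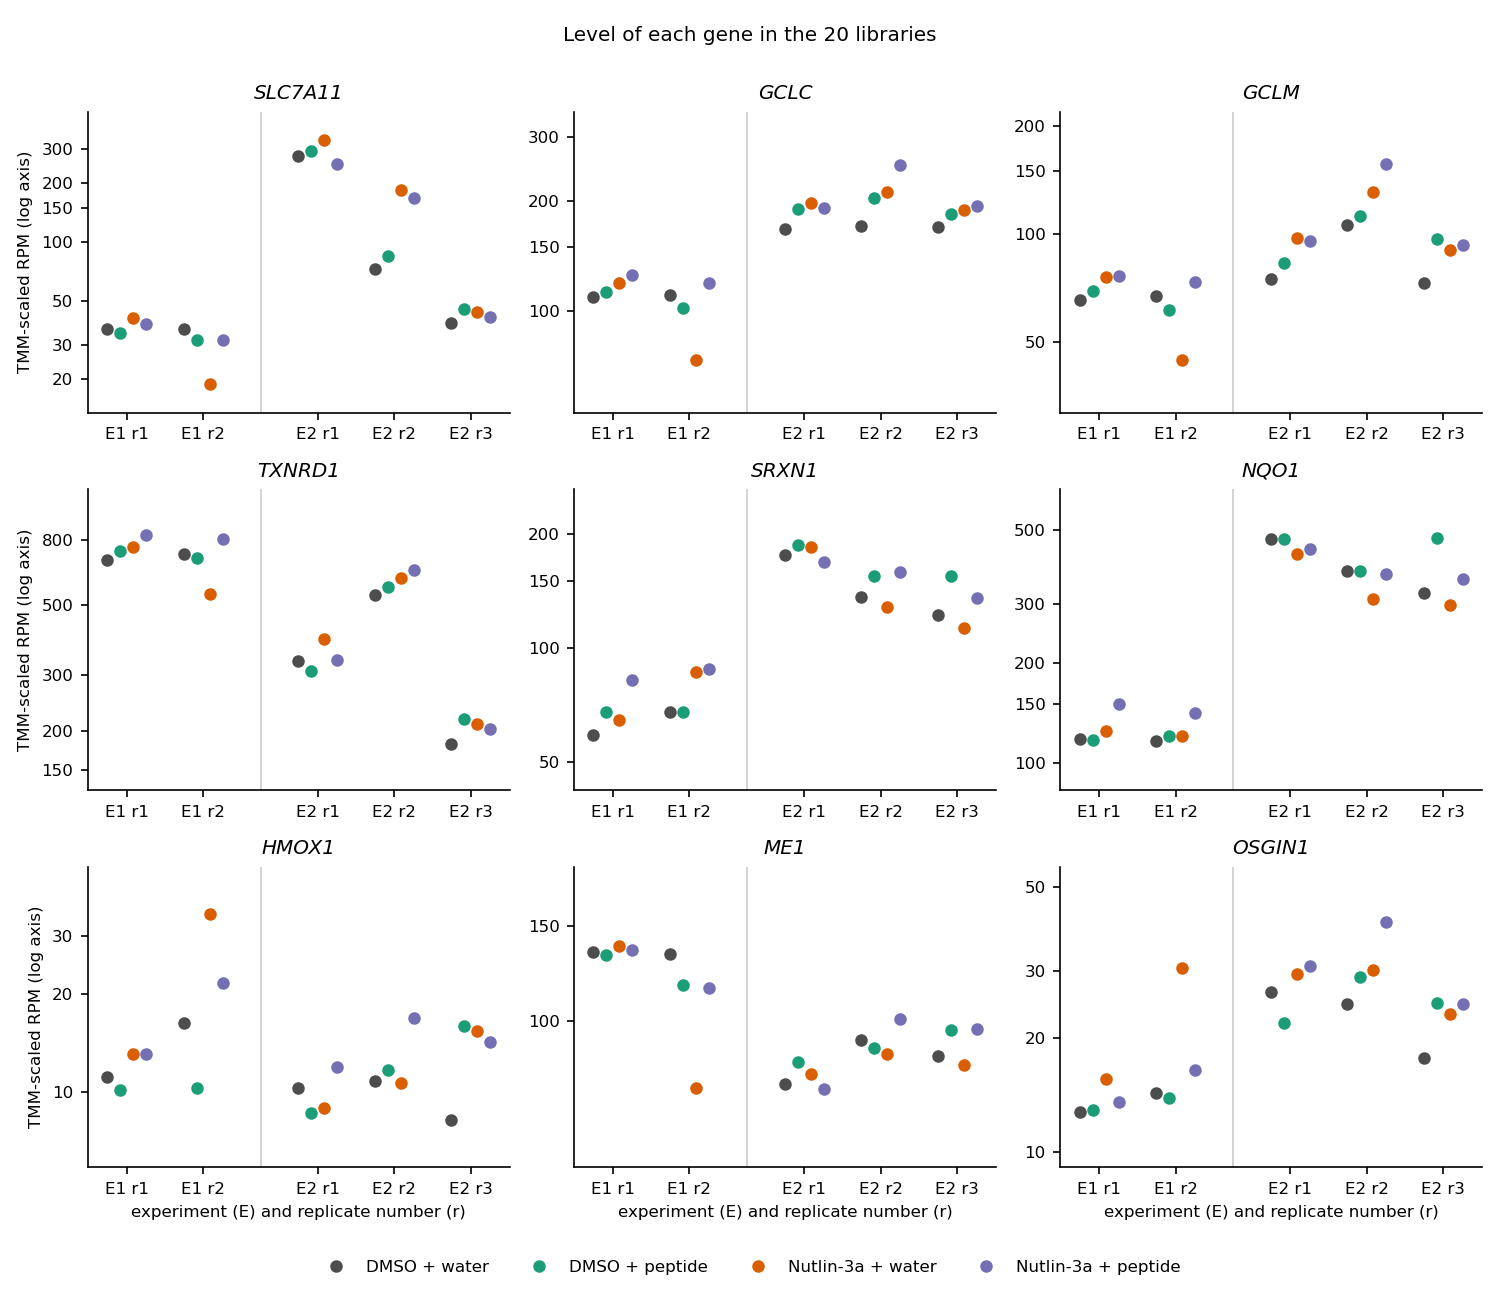
Level of each gene in every library, as TMM-scaled RPM on a log axis, with experiment (E) and replicate number (r) on the horizontal axis and colour for the 4 conditions. SLC7A11 spans 38.8 to 331 RPM in experiment 2, ordered by replicate number, and the orange point of E1 r2 is the library that stood apart.

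The library that stood apart moved the members in both directions. SLC7A11, GCLC, GCLM, TXNRD1 and ME1 were below all 7 other libraries of experiment 1 in it (SLC7A11 at 18.9 RPM against 31.8 to 40.8, ME1 at 75.3 RPM against 116 to 138). HMOX1 and OSGIN1 were above all 7 (HMOX1 at 35.1 RPM against 10.1 to 21.6, OSGIN1 at 30.6 RPM against 12.7 to 16.4), and SRXN1 and NQO1 were within the range of the others. The 5 low members are those with the longest rows, 23.96 kb for GCLM to 220.56 kb for ME1, and the other 4 rows span 6.56 to 17.04 kb. Of all genes in rows of 20 kb or more, 65.9% were below every other library of experiment 1, against 25.5% of genes in shorter rows. Above every other library were 18.3% of genes in rows of 20 kb or more and 51.1% of genes in shorter rows. The part of this library's composition in the Nutlin-3a values was not tested.

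The fit with replicate numbers as blocks and without that library, added after the data were seen, still called none of the 9 members, beside 0.0313% of all genes. In it GCLM was at 0.26 ± 0.07 (limma adjusted p = 0.219), SLC7A11 at 0.44 ± 0.17 (0.302), GCLC at 0.18 ± 0.07 (0.298), TXNRD1 at 0.18 ± 0.07 (0.311) and OSGIN1 at 0.25 ± 0.10 (0.307), adjusted p in parentheses. These 5 had an unadjusted p under 0.05, as did 13.5% of all genes. In experiment 2 alone with blocks the same 5 genes had an unadjusted p under 0.05, as did 21.2% of all genes, and the smallest adjusted p of limma was 0.0816, for GCLM at 0.33 ± 0.09. Each of the 5 was higher in 3 of 3 pairs of experiment 2, as were 20.1% of all genes.

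**Figure D2:**
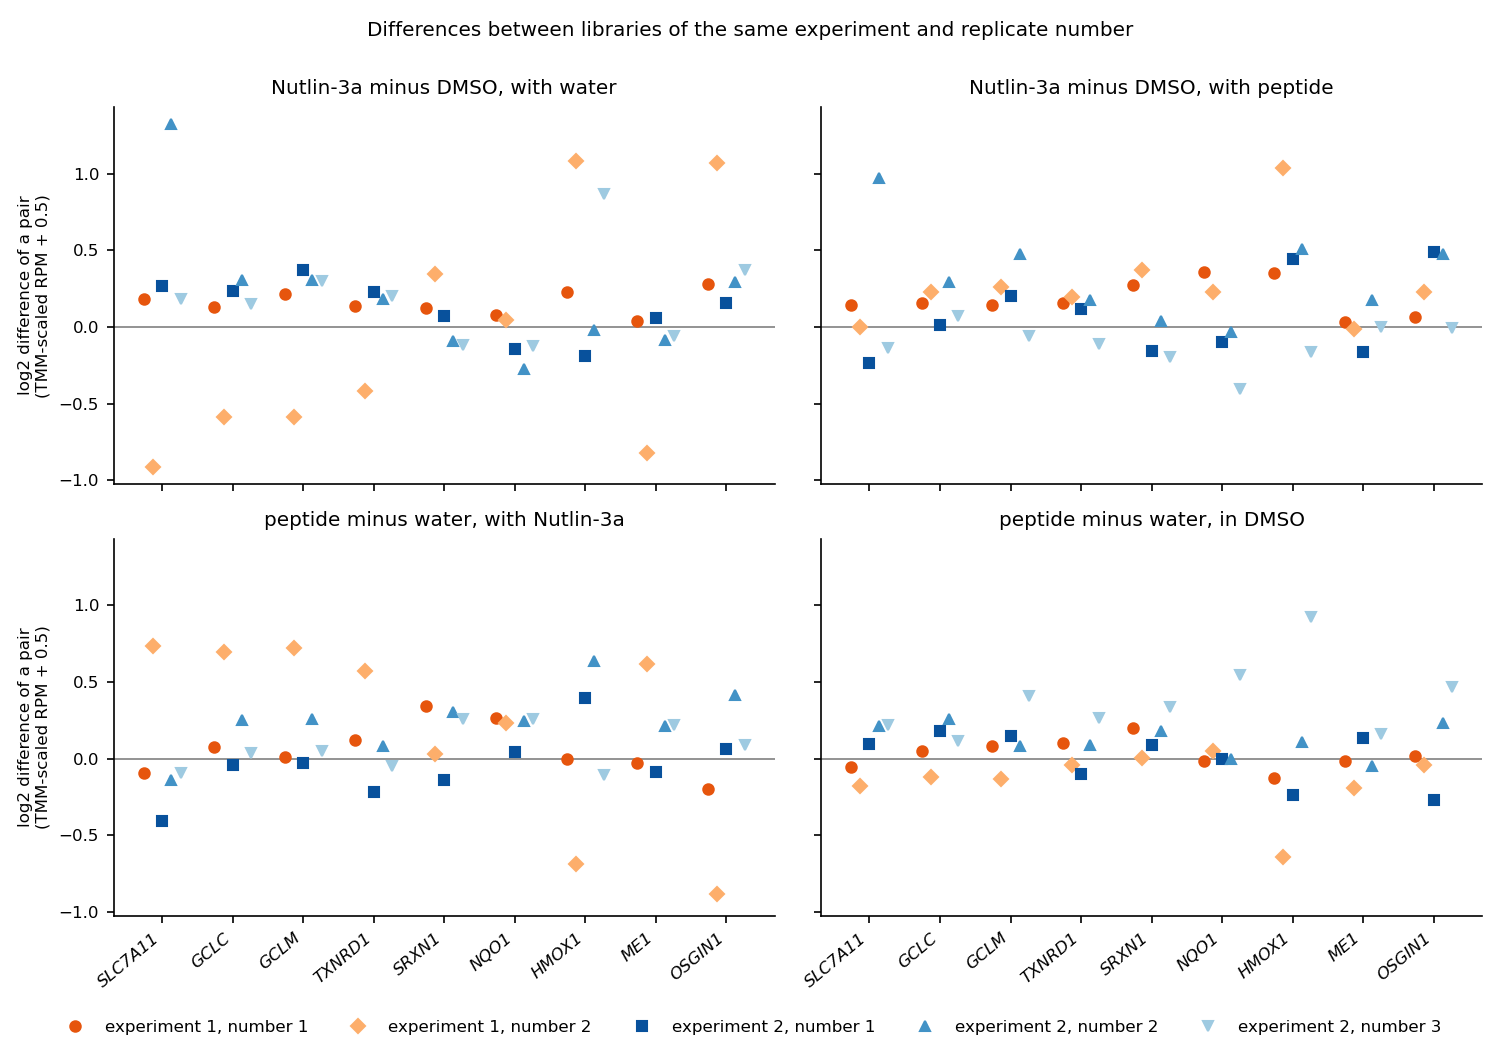
Difference between the 2 libraries of each pair, as log2 of TMM-scaled RPM + 0.5, for the 9 genes in the 4 treatment comparisons, with 1 marker per experiment and replicate number. OSGIN1 lies above 0 in 5 of 5 pairs with Nutlin-3a and water, and the light orange diamonds, which hold the library that stood apart in both left panels, lie far from most of the other markers for all genes but SRXN1 and NQO1.

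Peptide against water under Nutlin-3a asks whether the peptide, described as blocking the p53 and Mediator contact, alters the response. In experiment 1 CDKN1A had 120 and 177 RPM with Nutlin-3a and water and 42.9 and 49.3 with Nutlin-3a and peptide. In experiment 2 it had 88.4, 102 and 49.3 RPM against 80.6, 95.4 and 45.6. Whether the contact was blocked in either experiment was not tested. None of the 9 members passed, beside 0% of all genes, and none had an unadjusted p under 0.05 in limma or limma-voom, beside 0.483% of all genes in limma. The estimates had a median of 0.16, against 0.04 over all genes, and 8 of 9 were above 0, or 7 with no scaling factor or median of ratios. Of the 15958 genes tested, 9717 were above 0. Without the library that stood apart the member median was 0.07, against 0.01 over all genes, and 7 of 9 were above 0. NQO1 was at 0.21 ± 0.14 (95% interval -0.08 to 0.50, adjusted p = 1 by limma) and was higher with peptide in 5 of 5 pairs, by 0.26, 0.23, 0.05, 0.24 and 0.26, as were 4.86% of all genes. GCLC and GCLM were at 0.20 ± 0.13 and 0.20 ± 0.18, with 0.70 and 0.72 in the pair of the library that stood apart and -0.04 to 0.26 in the other 4, and without that library they were at 0.07 and 0.05. ME1 was at 0.19 ± 0.14 with it and 0.04 without it, SRXN1 at 0.16 ± 0.15 and 0.24, and TXNRD1 at 0.10 ± 0.34 and -0.01. The values of HMOX1 (0.05 ± 0.27) and SLC7A11 (0.00 ± 0.61) also rested on that library, and without it HMOX1 was at 0.33 ± 0.22 and SLC7A11 at -0.24 ± 0.66. SLC7A11 was lower with peptide in 4 of 5 pairs and higher by 0.74 in the pair of that library. OSGIN1 was at -0.10 ± 0.20, lower with peptide in both pairs of experiment 1 (-0.20 and -0.88) and higher in the 3 of experiment 2 (0.07, 0.42 and 0.09). OSGIN1 was at 0.10 without the library that stood apart, so its sign rested on that library. With replicate numbers as blocks and without that library, none of the 9 members passed, beside 0% of all genes, and SRXN1 and NQO1, both at 0.23, had an unadjusted p under 0.05 (limma adjusted p = 0.447 each), as did 11.1% of all genes. The comparison shares its Nutlin-3a with water libraries with the one above, so a low or high library there enters both with opposite sign.

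Peptide in DMSO asks what the peptide does without p53 release. None of the 9 members passed, beside 0% of all genes, and none had an unadjusted p under 0.05 in limma or limma-voom, beside 0.1% of all genes in limma. In experiment 2 alone with replicate numbers as blocks, 3 members had an unadjusted p under 0.05 in limma, as did 4.15% of all genes. These were GCLM (0.215 ± 0.09, unadjusted p = 0.0238), SRXN1 (0.20 ± 0.09, 0.0317) and GCLC (0.19 ± 0.08, 0.0351). None of them was called there (limma adjusted p = 0.972 each), beside 0% of all genes. Over all libraries the 9 estimates were between 0.00 and 0.16, with a median of 0.08 against 0.02 over all genes. Of the 15958 genes tested, 9580 were above 0. With no scaling factor or median of ratios 7 of 9 were above 0. The experiments did not share this direction. Fitted alone, experiment 1 had 1 of 9 above 0 (median -0.056, against 0.002 over all genes), and experiment 2 had 9 of 9 (median 0.18, against 0.01). The size also rested on 1 control library, number 3 of experiment 2. When it was dropped, the median was 0.005 against 0.025 over all genes, and 6 of 9 were above 0. Over all libraries SRXN1 was at 0.16 ± 0.15 (95% interval -0.16 to 0.48). It was higher with peptide in 5 of 5 pairs, by 0.20, 0.00, 0.09, 0.18 and 0.34, as were 5.86% of all genes. GCLM was at 0.12 ± 0.18, NQO1 at 0.11 ± 0.14 and GCLC at 0.10 ± 0.13. GCLC was higher in 4 of 5 pairs, among them the 3 pairs of experiment 2 (0.18, 0.26 and 0.11), as were 13.2% of all genes for those 3. HMOX1 had the widest spread of pairs, from -0.64 to 0.92, around an estimate of 0.00 ± 0.27. In this fit, which leaves out replicate numbers, the 95% intervals left room for a change of at most 1.35 in either direction for SLC7A11. For the members other than SLC7A11 and TXNRD1 they left room for no more than 0.57. With replicate numbers as blocks the interval was -0.37 to 0.49 for SLC7A11 and -0.15 to 0.27 for TXNRD1.

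Nutlin-3a in peptide-treated cells called none of the 9 members, beside 0% of all genes, and none had an unadjusted p under 0.05 in limma or limma-voom, beside 0.163% of all genes in limma. With replicate numbers as blocks, limma had 1 member, HMOX1, at an unadjusted p under 0.05, beside 1.83% of all genes. Without the library that stood apart, whose group is not part of this comparison but shares its estimate of the spread, the block fit had 4, GCLC, GCLM, HMOX1 and OSGIN1, beside 4.91% of all genes, and still called none of the 9, beside 0% of all genes (limma adjusted p = 0.943 each). All 9 estimates were above 0 (8 with no scaling factor), as were 6903 of the 15958 genes tested, with a median of 0.15 against -0.01 over all genes. HMOX1 was at 0.44 ± 0.27 (95% interval -0.13 to 1.00) and was higher in 4 of 5 pairs, by 0.35, 1.04, 0.44 and 0.51, with -0.16 in the fifth. OSGIN1 was at 0.25 ± 0.20 and GCLM at 0.21 ± 0.18, each higher in 4 of 5 pairs. GCLC was at 0.15 ± 0.13 and was higher in 5 of 5 pairs, by 0.16, 0.23, 0.01, 0.30 and 0.07, as were 1.62% of all genes. SLC7A11 was at 0.15 ± 0.61, TXNRD1 at 0.11 ± 0.34, SRXN1 at 0.07 ± 0.15, and NQO1 and ME1 at 0.01. NQO1 was higher in both pairs of experiment 1 (0.36 and 0.23) and lower in the 3 of experiment 2 (-0.10, -0.03 and -0.40). The difference of the Nutlin-3a change with and without peptide was itself tested, and 0 of 9 members passed, beside 0% of all genes, or had an unadjusted p under 0.05, with estimates from -0.18 for OSGIN1 to 0.18 for ME1. Those were 0.02 and 0.03 without the library that stood apart, and the estimates ran from -0.30 for SLC7A11 to 0.33 for HMOX1, again with none called.

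Whether a treatment change differed between the experiments was tested with limma on the 8 group means, and 0 of 9 members passed in each of the 4 treatment comparisons. Of all genes 0% passed for Nutlin-3a with water and for peptide under Nutlin-3a, and 0.00627% for each of the other 2 comparisons. With the replicate number as a block, 0 of 9 members passed again, beside 0.0188% of all genes for Nutlin-3a with water, 0.338% for peptide under Nutlin-3a, 0.00627% for peptide in DMSO and 0.0376% for Nutlin-3a in peptide-treated cells. The smallest adjusted p of a member in that fit was 0.125, for SLC7A11 with Nutlin-3a and water, at a difference of 0.96 (experiment 2 minus experiment 1). That difference was 0.47 without the library that stood apart (limma adjusted p = 0.752). The same fit then called 0 of 9 members in each comparison, beside 0.0313%, 0.157%, 0.00627% and 3.2% of all genes in the same order. Its smallest member values were 0.0636 for SRXN1 (-0.43) and 0.0641 for NQO1 (-0.47), both limma adjusted p for Nutlin-3a in peptide-treated cells.

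The rest of the pathway was read from 4 lists. None of the 10 regulators, of the 10 tested glutathione and thioredoxin genes, of the 6 NADPH genes or of the 15 tested iron, heme and detoxification genes passed in any of these 5 comparisons. NFE2L2, which encodes NRF2, was at -0.04 ± 0.18 with Nutlin-3a and water, 0.01 with peptide under Nutlin-3a, 0.08 with peptide in DMSO and -0.11 with Nutlin-3a in peptide-treated cells. In the last of these NFE2L2 was lower in 5 of 5 pairs (-0.10, -0.09, -0.32, -0.0044 and -0.06), as were 3.16% of all genes. KEAP1 lay between -0.04 and 0.03 in these 4 comparisons, and BACH1 between -0.14 and 0.10. The KEAP1 values rested on the library that stood apart. With Nutlin-3a and water KEAP1 was lower in 4 of 5 pairs and higher by 0.61 in the pair of that library, and without it KEAP1 was at -0.21 ± 0.10, and at 0.21 ± 0.10 with peptide under Nutlin-3a (limma unadjusted p = 0.0559 and 0.0596). BACH1 was at -0.01 and -0.04 without it. Among the others, thioredoxin TXN was at -0.24 ± 0.13 with Nutlin-3a and water and at 0.34 ± 0.13 with peptide under Nutlin-3a (limma unadjusted p = 0.0185), and the peroxiredoxin PRDX1 at -0.26 ± 0.18 and 0.32 ± 0.18. The NRF2 ligase scaffold CUL3 was at -0.23 and 0.15, the NADPH-forming dehydrogenase IDH1 at -0.21 and 0.21, the mitochondrial folate enzyme MTHFD2 at -0.13 and 0.17, and the biliverdin reductase BLVRA at -0.22 and 0.19. These comparisons share the Nutlin-3a with water libraries, and the library that stood apart carried much of several values. Without it CUL3 was at -0.01 and -0.07, IDH1 at -0.07 and 0.07, MTHFD2 at -0.07 and 0.12, BLVRA at -0.17 and 0.13, TXN at -0.15 and 0.24, and PRDX1 at -0.17 and 0.24. TXN and BLVRA were lower with Nutlin-3a and water in 5 of 5 pairs, as were 4.51% of all genes. Both were higher with peptide under Nutlin-3a in 5 of 5, as were 4.86%. IDH1 and MTHFD2 were also lower in 5 of 5 in the first comparison. PRDX1, the NADPH gene PGD and the detoxification gene AKR1B1 were also higher in 5 of 5 in the second. The detoxification gene CYP4F11 went the other way, higher in 5 of 5 (2.87% of all genes) and lower in 5 of 5 (2.53%). MAFK was lower in 5 of 5 in the second. The epoxide hydrolase EPHX1 was at 0.14 with Nutlin-3a and water (0.06 without that library), and the small MAF gene MAFF at -0.33 ± 0.40 (-0.19) and the UDP-glucose dehydrogenase UGDH at 0.22 (0.09) with peptide under Nutlin-3a. In the comparisons with the DMSO with peptide libraries, the aldo-keto reductase AKR1C3 was at 0.21 with peptide in DMSO and -0.20 with Nutlin-3a, both ± 0.21. With peptide in DMSO, PRDX1 was at 0.14, MTHFD2 at 0.11 and the ferrochelatase FECH, the last step of heme synthesis, at 0.12. In that comparison FECH and AKR1C3 were higher in 5 of 5 pairs (5.86% of all genes), and MAFK and ABCC3 lower in 5 of 5 (3.28%). AKR1C3 was lower in 5 of 5 with Nutlin-3a in peptide-treated cells.

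With TMM scaling, all members but HMOX1 had larger estimates between the experiments than in any treatment comparison. Of the 9, 8 passed the test of experiment 2 against experiment 1, and 70.9% of all genes did, so most genes outside the pathway differed as well. That test takes 12 against 8 libraries as independent, but libraries of the same experiment and number deviate together, so its p-values are too small if they are not. Over 5 replicate sets, each the mean of the 4 libraries of 1 experiment and number, 3 sets against 2, the same estimates called 3 of 9 members, NQO1 (limma adjusted p = 0.00406), SRXN1 (0.0178) and GCLC (0.0307), and 33.1% of all genes. OSGIN1 (0.0812), SLC7A11 (0.0856), TXNRD1 (0.101), GCLM (0.133) and ME1 (0.166) did not pass over sets. The SE and p-values that follow are those over libraries. SLC7A11 was 3.41-fold higher in experiment 2 (log2 1.77 ± 0.44, 12 against 8 libraries, limma adjusted p = 0.00154), with 18.9 to 40.8 RPM in experiment 1 and 38.8 to 331 in experiment 2. NQO1 was 3.06-fold higher (1.61 ± 0.10, limma adjusted p = 6.13e-11), with 116 to 150.4 RPM against 298 to 472. SRXN1 was 2.07-fold higher (1.05 ± 0.11), GCLC 1.78-fold (0.84 ± 0.09), OSGIN1 1.67-fold (0.74 ± 0.14) and GCLM 1.49-fold (0.58 ± 0.13). TXNRD1 was lower, at -1.07 ± 0.25 (541 to 827 RPM against 182 to 641, limma adjusted p = 0.000743), and ME1 at -0.47 ± 0.10. HMOX1 was at -0.34 ± 0.19 and did not pass (limma adjusted p = 0.119). The libraries of the 2 experiments did not overlap for GCLC, SRXN1 and NQO1, 3 of 9 members, and for 39.2% of all genes.

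The call of ME1 and the sign of HMOX1 depended on scaling. Without a scaling factor the median of all genes moved from 0.05 to 0.42, the members split 6 higher to 1 lower instead of 6 to 2, ME1 was at -0.07 and no longer passed (limma adjusted p = 0.691), and HMOX1 turned to 0.05. Relative to the median of all genes, TXNRD1, ME1 and HMOX1 lay below it under each of the 3 scalings run. Every library of an experiment shares its experiment, so library preparation and the state of the cultures cannot be told apart, nor can fewer cells of a kind and less RNA per cell in bulk libraries. Summed over 3 neuronal markers the libraries had 188 to 507 RPM in experiment 1 and 9.02 to 78.5 RPM in experiment 2, nearly all from SYT1, and its part in these differences was not tested.

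**Figure D3:**
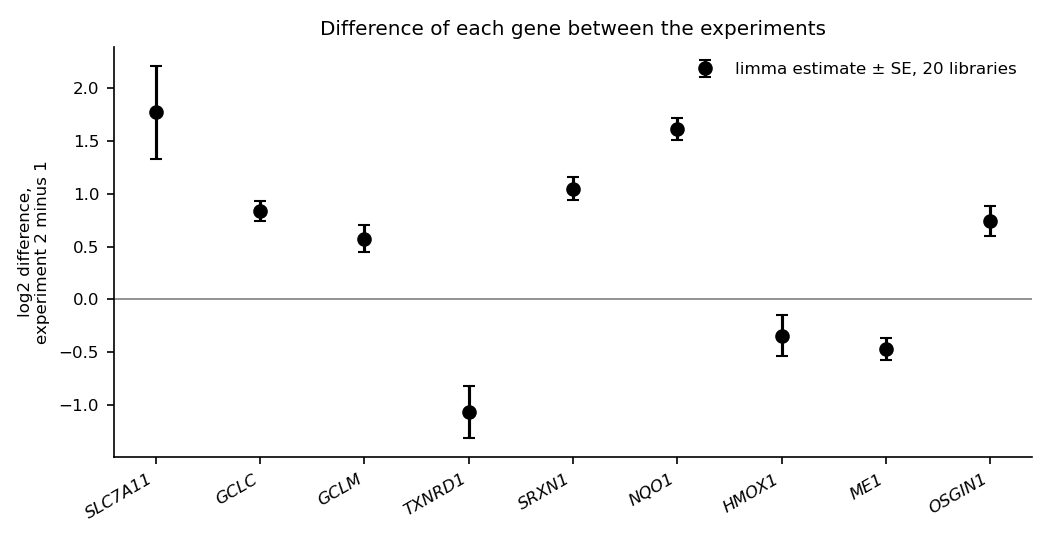
Difference of each gene between the experiments, as the limma estimate of log2 of TMM-scaled RPM + 0.5 in 12 libraries of experiment 2 minus 8 of experiment 1, with bars of 1 SE. SLC7A11 and NQO1 lie highest and TXNRD1 lowest, and the bar of SLC7A11 is the longest.

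The regulators were mostly higher in experiment 2 as well, with 6 of 10 called higher and 0 lower, among them NFE2L2 (1.83 ± 0.13, 64.5 to 236 RPM on average, limma adjusted p = 4.8e-10), KEAP1 (0.50 ± 0.11), the small MAF gene MAFG (1.96 ± 0.11), the autophagy receptor SQSTM1 (1.30 ± 0.16) and the NRF2 relative NFE2L1 (0.84 ± 0.12). BACH1 was at -0.16 ± 0.11 and did not pass (limma adjusted p = 0.214). Of 10 glutathione and thioredoxin genes 5 were called higher, led by MGST1 (2.15), TXN (1.40), PRDX1 (1.34) and GSTP1 (1.21), and 1 lower, the glutathione-conjugate exporter ABCC1 (-2.17). Of 6 NADPH genes 4 were called higher, IDH1 (1.57), MTHFD2 (1.23), PGD (0.97) and TALDO1 (0.35). Of 15 iron, heme and detoxification genes 8 were called higher, among them the ferritin chains FTL (3.24) and FTH1 (2.99), AKR1B1 (1.60) and EPHX1 (1.57). Called lower were 3, AKR1C3 (-1.14, at low levels of 1.05 RPM on average in experiment 1 and 0.207 RPM in experiment 2), CYP4F11 (-1.69) and TRIM16 (-0.52). Over all genes 36.7% were called higher and 34.2% lower. Without a scaling factor no list changed its majority, and the regulators had 8 called higher and 0 lower. Over the 5 replicate sets limma called 4 regulators higher and 0 lower, 5 and 1 glutathione and thioredoxin genes, 3 and 0 NADPH genes, and 5 and 1 iron, heme and detoxification genes, with NFE2L2 at an adjusted p of 0.00421 and KEAP1 at 0.145.

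Within experiment 2 the replicate numbers separated the members. In limma's F test of the 3 numbers, added after the data were seen, all 9 members had an adjusted p under 0.05, and so did 92.4% of all genes, so the members do not stand out by it. SLC7A11 had 250.1 to 331 RPM in the 4 libraries numbered 1, 73.3 to 184 in those numbered 2 and 38.8 to 45.4 in those numbered 3 (limma adjusted p = 2.41e-10). TXNRD1 had 309 to 388, 535 to 641 and 182 to 218 RPM in the same order (limma adjusted p = 5.96e-12). The ranges of all 3 numbers were apart for these 2 of the 9 members and for 28.2% of all genes, and their orders differed: SLC7A11 was highest at number 1 and TXNRD1 at number 2. Relative to number 1, SLC7A11 was at -1.24 in number 2 and -2.73 in number 3, and GCLM at 0.55 and 0.02. GCLM was highest in the libraries numbered 2 (106 to 156 RPM against 73.1 to 97.2 in the other 8), and SRXN1 in those numbered 1 (168 to 187 RPM against 113 to 158). The calls of GCLC and HMOX1 depended on single libraries. GCLC missed the threshold without replicate 2 or 3 of DMSO with peptide (adjusted p = 0.0503 and 0.0528), replicate 2 of Nutlin-3a with water (0.0527), or replicate 2 or 3 of Nutlin-3a with peptide (0.248 and 0.054). HMOX1 missed it without replicate 1 or 3 of DMSO with peptide (adjusted p = 0.165 and 0.0642) or of Nutlin-3a with water (0.121 and 0.053), or replicate 1 of Nutlin-3a with peptide (0.0883), and with median of ratios scaling (0.057).

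Correlations among the members varied widely. Over the 20 libraries, after the mean of each experiment was taken off, the 36 pairs of members had a median correlation of 0.17 and a range of -0.55 to 0.87, with 22 above 0. Without the library that stood apart the median was 0.27 and the range -0.43 to 0.87, with 30 above 0, and 10 of the 36 pairs changed sign. These are descriptions, since the libraries share replicate numbers and composition. The subunits GCLC and GCLM were the most alike, at 0.87 (0.99 in the 8 libraries of experiment 1 and 0.86 in the 12 of experiment 2), and stayed at 0.86 without the library that stood apart. SRXN1 and NQO1 were at 0.81 (0.64 and 0.89), GCLM and TXNRD1 at 0.74, and HMOX1 and OSGIN1 at 0.72, the last at 0.48 without that library. ME1 and SLC7A11 were at 0.99 in experiment 1 and -0.54 in experiment 2. GCLM and OSGIN1 were at -0.79 in experiment 1 and 0.81 in experiment 2, and at 0.78 over 19 libraries without that library.

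**Figure D4:**
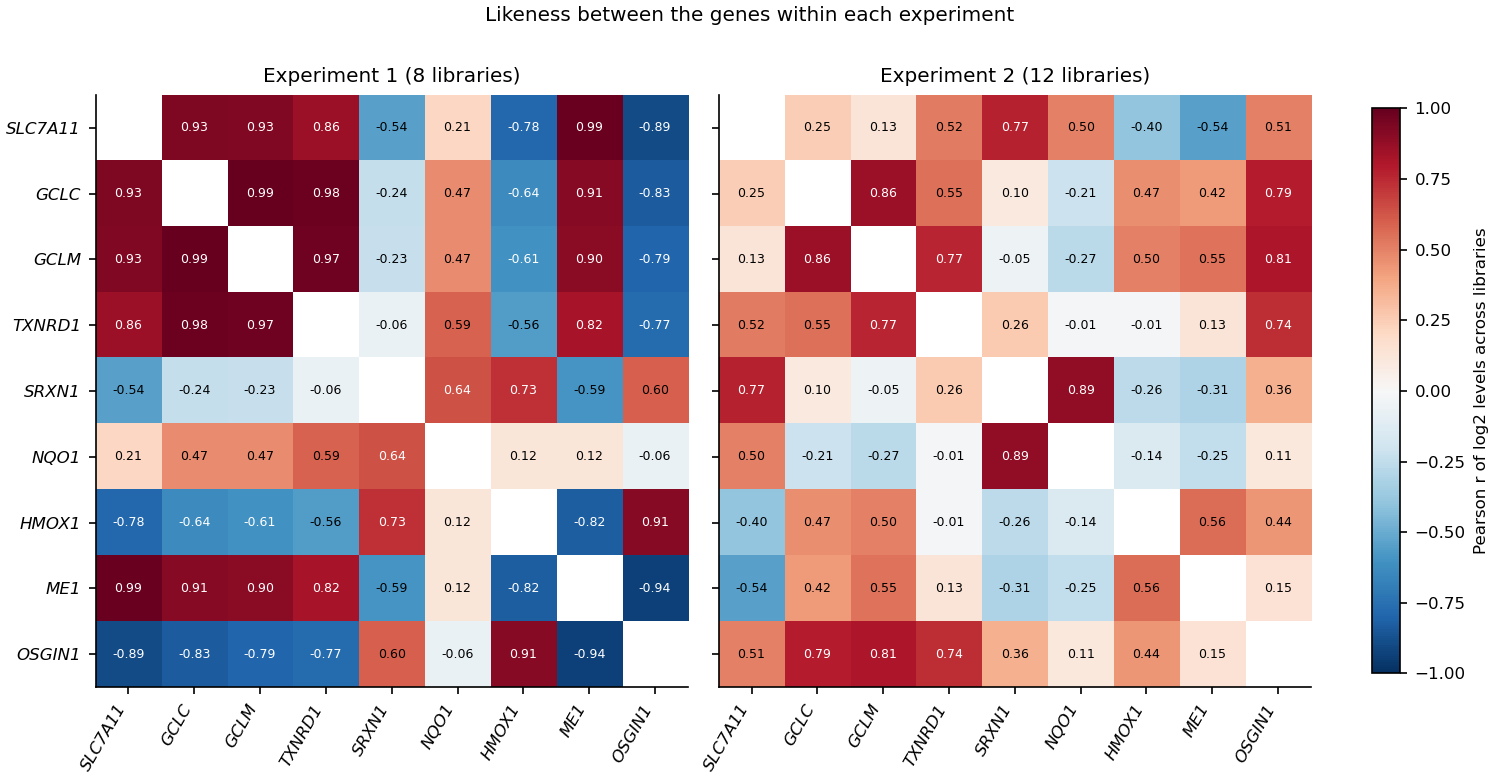
Pearson correlation of log2 levels between each pair of the 9 genes across the 8 libraries of experiment 1 and the 12 of experiment 2, with red for values above 0 and blue below. GCLC with GCLM and SRXN1 with NQO1 are above 0.6 in both panels, while OSGIN1 with GCLM turns from -0.79 to 0.81.

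Among the 10842 genes with at least 5 RPM in each experiment, the gene most like OSGIN1 was BTG2, an antiproliferative p53 target, at 0.87. This was 0.92 in experiment 1 and 0.81 in experiment 2, and RIN1 followed at 0.84. BTG2 averaged 8.62 RPM in experiment 1 and 5.54 RPM in experiment 2. In experiment 1 OSGIN1 had 30.6 RPM in the library that stood apart and 12.7 to 16.4 RPM in the others. The values of this paragraph were not computed without that library. GCLC was most like PTGR2 (0.89) and then GCLM (0.87), and GCLM most like ALG10B (0.91) and DNAJC16 (0.90). SLC7A11 was most like TFPI (0.98) and the glutamate and cysteine transporter SLC1A1 (0.98), and TXNRD1 like PM20D2 (0.99) and the growth factor gene EREG (0.98). SRXN1 was most like DIRAS1 (0.92) and RNF41 (0.89), NQO1 like ATP5E and H3F3B (both 0.89), HMOX1 like MUTYH (0.82) and ZNHIT2 (0.79), and ME1 like TLK1 (0.97) and RNGTT (0.95). GCLC was the only member with another member among its 2 most like genes.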

How the data were processed

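Nuclear RNA of HCT116 cells was sequenced in 20 libraries, 5 per condition. The authors deposited 1 table per experiment with a signal per RefSeq gene row and library, and the labels do not name its unit. HISAT2, bedtools, limma and hg38 are named, without versions, in the submitters' processing notes. The deposited signal was multiplied by a quantity of each row (the stop in bases minus the start in kb), after which every column summed to 1000000, so the values were read as RPM, and 100% were whole multiples of 1 read (tolerance 0.001). Each row has its own divisor in the deposited signal, so no count test was the main one. Libraries were scaled by TMM (trims of 30% and 5%), and log2(RPM + 0.5) was fitted with limma 3.58.1 in R 4.3.3, with terms for condition and experiment, over the 15958 genes whose mean reached 0.5 RPM. The threshold was a Benjamini-Hochberg adjusted p of 0.05, and fold changes are on the log2(value + pseudocount) scale, which understates those of low genes. Tables were read with Python 3.11.15 and pandas 2.3.3, and figures drawn with matplotlib 3.10.9. All columns were mapped to samples by name.

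Same-numbered libraries deviated together, with correlations of 0.877 to 0.940 over the 18 pairings of experiment 2. The 12 of experiment 1, where 2 replicates mirror each other, lay at 0.286 to 0.586. No label states this pairing, which comes from the values. The replicate number was therefore also fitted as a block. Other alternatives were no scaling factor, median of ratios, other filters and pseudocounts, limma-voom, each experiment alone, each library left out and, for the comparison of experiments, the means of the 5 replicate sets. The procedure was tested on simulated data for Nutlin-3a with water over 15838 genes with 50 genes changed per fold size. It recovered 6% of 1.5-fold, 44% of 2-fold, 84% of 3-fold and 92% of 4-fold changes, with 7 false calls. The simulated libraries were drawn independently, without the deviations that same-numbered libraries share, so these rates may not hold for the real libraries.

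The members, the pathway and marker lists and the tests were chosen with earlier results of these data known. Named genes were all members, NFE2L2, KEAP1 and BACH1, and from each pathway list those that passed (the 4 with the smallest p per direction) or, where none passed, up to 2 with the smallest p. CDKN1A and EID3 were added after the values were seen. So were pathway genes that moved the same way in 5 of 5 pairs of a treatment comparison. Genes listed but below the filter were GPX2, GSTM3, AKR1C2, CBR1 and UGT1A6.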

Additional observations from a re-analysis of the deposited data

Results flagged for a closer look

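Over the 9 members in each of the 4 treatment comparisons, there were 4 cases in which every pair of experiment 1 moved one way and every pair of experiment 2 the other. They were picked by these signs, and the share of all genes with such a pattern was not counted. NQO1 with Nutlin-3a and water was at 0.08 and 0.05 in experiment 1 and at -0.15, -0.27 and -0.12 in experiment 2, a difference of the means of -0.24 (experiment 2 minus experiment 1, log2). NQO1 with Nutlin-3a in peptide-treated cells was at 0.36 and 0.23 in experiment 1 and at -0.10, -0.03 and -0.40 in experiment 2, a difference of -0.47. OSGIN1 with peptide under Nutlin-3a was at -0.20 and -0.88 in experiment 1, the second in the pair with the library that stood apart, and at 0.07, 0.42 and 0.09 in experiment 2, a difference of 0.73. SLC7A11 with peptide in DMSO was at -0.05 and -0.18 in experiment 1 and at 0.10, 0.21 and 0.22 in experiment 2, a difference of 0.29. The differences were tested with limma on the 8 group means, and each had an adjusted p of 1, beside 0% to 0.00627% of all genes called in the 4 comparisons. With the replicate number as a block, limma's adjusted p was 0.311 and 0.278 for NQO1, 0.147 for OSGIN1 and 1 for SLC7A11, so none passed there either. Without the library that stood apart the difference of OSGIN1 was 0.35 in that fit (limma adjusted p = 0.579).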

How the results depend on the processing

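No member was called in any of the 5 treatment comparisons under any of the 37 settings run, and all 1665 member values kept their side of the threshold, while 167 changed sign without a call. With the replicate number as a block, 0 members were called in each treatment comparison, and the smallest adjusted p of limma was 0.582, for OSGIN1 with Nutlin-3a and water. That fit had 7.64% of all genes at an unadjusted p under 0.05 in this comparison, and 0.627% had one without the block. Leaving out each library gave 0 members called in every treatment comparison and 8 in the comparison of experiments, over libraries. In that comparison 255 of 261 member values kept their side, and ME1 without a scaling factor and SLC7A11, GCLM, TXNRD1, ME1 and OSGIN1 over the 5 replicate sets did not, with 3 members called over the sets, where fewer units are tested. The sets were added after the data were seen. The members that differed between replicate numbers ranged from 7 to 9 when each library of experiment 2 was left out. Experiment 1 alone has 2 replicates per group. The absence of calls does not bound the size of a change.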
